A study of Mus musculus with 22 samples.

Results

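The effect of serial passage was compared between 2 sets of wild-type (WT) mouse embryonic fibroblasts (MEFs), gene by gene. The comparison used 16 of the 22 libraries, all WT: 4 of early (passage 3) and 4 of late (passage 8) MEFs of the S6K1 set, which was made for comparison with S6K1 KO cells, and 4 early and 4 late of the S6K1/S6K2 set, made for comparison with double knockouts. They were chosen by label. The cells of both sets carried no engineered allele, received no drug or transgene, and were grown from mid-gestation embryos in atmospheric oxygen. According to the study's methods, the WT embryos of the S6K1 set came from heterozygous breeding, and those of the S6K1/S6K2 set from WT mothers at an earlier stage of breeding for the double knockout. The MEF set therefore cannot be told apart from litter, breeding and any culture or library batch that went with it. The labels do not tie a late library to an early one. Y-linked genes were expressed in 2 early and 1 late library of the S6K1 set. In the S6K1/S6K2 set they were expressed in 2 early and 3 late libraries. The early and late libraries therefore cannot be matched in pairs from the same embryos. The balance of embryo sex also shifted with passage, in opposite directions in the sets. A fit with Y-linked expression as a covariate is given at the end.

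MEFs grown in atmospheric oxygen lose the ability to divide after a limited number of passages. Replicative senescence of this kind is enforced by cell cycle inhibitors of the Cdkn2a locus, and senescent fibroblasts enlarge, expand their lysosomes and can secrete cytokines, chemokines and matrix-degrading enzymes. A MEF culture is mixed at the start: it holds resident macrophages and mesothelial, endothelial and other cells beside the fibroblasts, and their shares can shift over the passages. In bulk RNA, a larger share of a cell type and more RNA per cell of that type cannot be told apart.

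Each library held 12118190 to 17314832 counts on genes, and 3 counts correspond to 0.173 to 0.248 counts scaled to the library total (CPM). CPM values below are given as the range of a group, lowest to highest, or in each of its 4 libraries in the order of their numbers. These were SG02, SG03, SG04 and SG05 (early) and SG19, SG21, SG22 and SG23 (late) in the S6K1 set. In the S6K1/S6K2 set they were SG46, SG47, SG48 and SG50 (early) and SG57, SG58, SG59 and SG60 (late). The passage effect is late minus early on the log2 scale, so that 1 is a doubling, and the difference between the sets is the passage effect of the S6K1/S6K2 set minus that of the S6K1 set. Tests were edgeR quasi-likelihood tests with Benjamini-Hochberg adjustment over all 14348 genes tested, and a gene passed at an adjusted p below 0.05. A gene was said to agree when it passed in both sets with the same sign, and to turn when it passed in both with opposite signs. SG03 and SG05 stood apart from the other early libraries on the second principal component, which carried 15.7% of the variance. Counts without them are given below. They expressed the female-specific RNA Xist (463 and 504 CPM), while SG02 and SG04 expressed Y-linked genes (208 and 242 CPM). They lay at −51.5 and −65.2 on that component, and SG46 and SG50, which also expressed Xist, at 25.8 and 19.7. The part of embryo sex in this position was not tested.

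With passage, 1132 genes rose and 1007 fell in the S6K1 set, 7.89% and 7.02% of the genes tested, and 962 rose and 700 fell in the S6K1/S6K2 set, 6.7% and 4.88%. In the S6K1 set, 618 genes fell without SG21, 644 without SG03 and 641 without both SG03 and SG05. In the S6K1/S6K2 set, 563 rose without SG46 and 570 without SG47, and the count that fell was 248 without SG47, 257 without SG46, 272 without SG59 and 340 without SG58. Across the genes, the passage effects of both sets had the same sign for 69.6%, with a Pearson r of 0.675 and a Spearman rho of 0.559. This correlation describes genes of the same 16 libraries, which are not independent replicates.

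The sets agreed on 903 genes, 639 that rose (4.45% of the genes tested) and 264 that fell (1.84%). These were 42.2% of the genes that passed in the S6K1 set and 54.3% of those that passed in the S6K1/S6K2 set. Their early and late libraries did not overlap in either set for 766 of the 903. Passing in both sets favours genes without overlap, so this count is no further support. Over all genes, 18.2% had no overlap in the S6K1 set and 20.4% in the S6K1/S6K2 set, each set taken alone. Without SG47 the genes that fell in both sets numbered 110, without SG46 113, without SG59 121, without SG58 141 and without SG21 164. A further 1199 genes passed in the S6K1 set alone and 722 in the S6K1/S6K2 set alone, but most of these moved the same way in the other set, 1034 and 643 of them, and only 27 and 18 of them had a passage effect that differed between the sets by its own test.

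**Figure D1:**
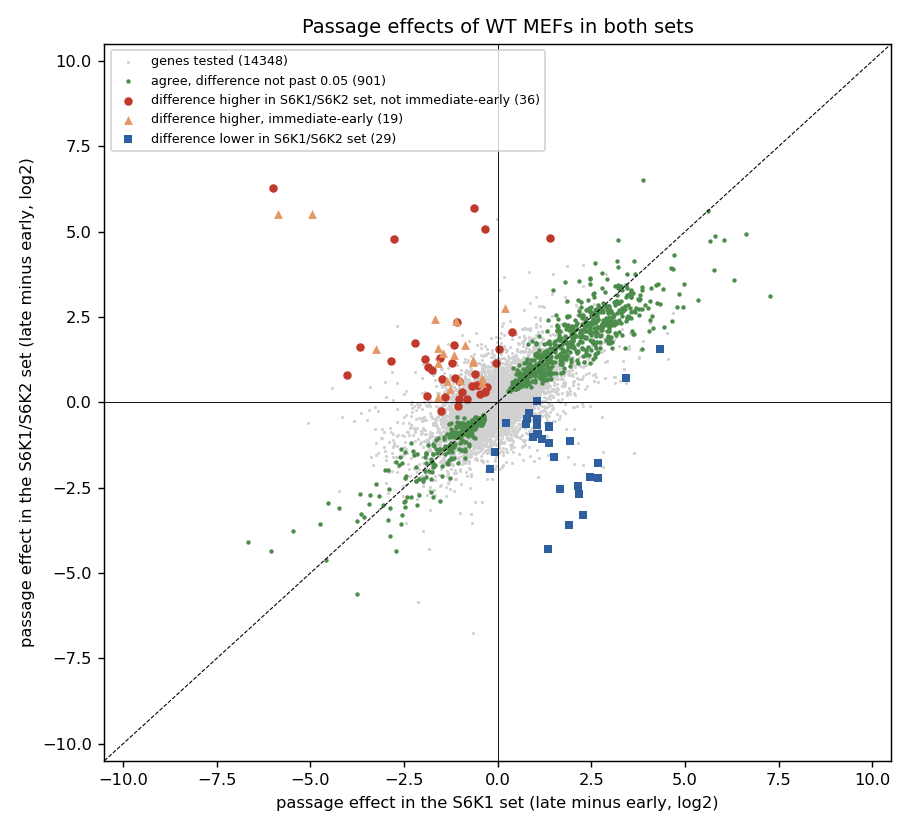
Passage effect of each gene tested in the S6K1 set (horizontal axis, log2) and in the S6K1/S6K2 set (vertical axis, log2), 1 point per gene, with coloured points for the genes that agree and for those whose passage effect differed between the sets. The 903 agreeing genes lie in the lower left and upper right, and 73 of the 84 genes with a difference have estimates of opposite sign.

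The 10 genes named by the size of their rise in both sets were taken from genes without overlap of early and late libraries. They included several known from macrophages and other leukocytes. Apoe, the lipid carrier apolipoprotein E, stood at 193, 105, 161 and 104 CPM early and 5345, 1156, 1819.6 and 2637 CPM late in the S6K1 set. Apoe in the S6K1/S6K2 set was at 209.6, 179, 404 and 792 CPM early and 3329.8, 4648, 4991 and 4483 CPM late. All late libraries lay above all early ones in each set, and the passage effect was 4.28 (SE 0.53, adjusted p = 7.21e-05) in the S6K1 set and 3.46 (SE 0.51, adjusted p = 0.000451) in the S6K1/S6K2 set. Cxcr4, the receptor of the chemokine CXCL12, stood at 0.92, 0.977, 0.877 and 0.268 CPM early and 22.5, 15.3, 24.8 and 14.9 CPM late in the S6K1 set. Cxcr4 in the S6K1/S6K2 set was at 1.12, 1.05, 2.4 and 2.96 CPM early and 24.9, 31.9, 36.8 and 20.6 CPM late. It rose by log2 4.62 (SE 0.39, adjusted p = 4.86e-06) in the S6K1 set and 3.93 (SE 0.36, adjusted p = 1.59e-05) in the S6K1/S6K2 set, with SG05 below the other early libraries. Clec12a, an inhibitory lectin receptor of myeloid cells, stood at 2.49 to 4.74 CPM early and 47.3 to 116 CPM late in the S6K1 set. Clec12a in the S6K1/S6K2 set was at 1.91 to 7.9 CPM early and 36.2 to 59.9 CPM late. Lair1, an inhibitory receptor for collagen on leukocytes, had nearly the same passage effect in both, 3.44 and 3.44, and the difference was 0.01 (95% interval −1.32 to 1.33, adjusted p = 0.998).

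Cd5l, a protein secreted by macrophages, had 3 counts in the early libraries of the S6K1 set together and 2 in those of the S6K1/S6K2 set, so its rises are ratios with wide counting intervals, 17.4 (5.6 to 87.4) and 111 (30.3 to 920). Serpinb6c, a protease inhibitor of the serpin family, and Shisa9, an auxiliary subunit of glutamate receptors, each had 1 count over the early libraries of the S6K1 set, and their ratios there were 154 (27.3 to 6140) and 74.4 (12.9 to 2980). The late libraries of the S6K1/S6K2 set held 2.06 to 2.32 CPM of Serpinb6c and 1.8 to 4.24 CPM of Shisa9. Mcoln3, a cation channel of endosomes and lysosomes, rose by log2 4.70 and 4.32 in the S6K1 and S6K1/S6K2 sets. BC055004, a gene named here only by its clone, rose by 4.69 and 3.91.

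Hpgd, which encodes the enzyme that inactivates prostaglandins, had the smallest adjusted p among the 10 named genes that rose in both sets. It stood at 6.17, 6.24, 5.26 and 4.29 CPM early and 93.5, 60.7, 103 and 62.6 CPM late in the S6K1 set. Hpgd in the S6K1/S6K2 set was at 8.71, 7.09, 6.3 and 6.85 CPM early and 86.7, 95.4, 74.1 and 44.5 CPM late. The late libraries were several times higher than every early library in both sets, and the passage effect was 3.86 (SE 0.25, adjusted p = 1.92e-07) in the S6K1 set and 3.37 (SE 0.25, adjusted p = 9.33e-07) in the S6K1/S6K2 set. The difference between the sets was −0.48 (95% interval −1.17 to 0.21, adjusted p = 0.705).

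Of the 18 tested macrophage markers, 18 rose in the S6K1 set and 17 in the S6K1/S6K2 set, with median passage effects of 2.95 and 2.45 beside −0.04 and −0.01 over all genes. Lyz2, lysozyme, stood at 481, 421, 598 and 209 CPM early and 6607, 3229, 6212 and 3822 CPM late in the S6K1 set. Lyz2 in the S6K1/S6K2 set was at 484, 371, 989 and 1104 CPM early and 6252, 8911, 7178 and 5038 CPM late. Csf1r, the receptor of macrophage colony-stimulating factor, stood at 13 to 23.7 CPM early and 82.8 to 245 CPM late in the S6K1 set. Csf1r in the S6K1/S6K2 set was at 12.3 to 41.5 CPM early and 104 to 156 CPM late, a difference of the passage effects of −1.18 (95% interval −2.25 to −0.11, adjusted p = 0.535). The summed markers ran from 543 to 1151 CPM early and 5554 to 11695 CPM late in the S6K1 set, and from 630.4 to 2080 CPM early and 7758 to 13431 CPM late in the S6K1/S6K2 set. No marker of this list had a difference between the sets that passed by edgeR, DESeq2 or voom, and 1 of 18 did at an unadjusted p below 0.05. The median difference was −0.47, beside 0.004 over all genes, and only 2 of the 18 estimates were above 0. By estimate, most markers therefore rose less in the S6K1/S6K2 set. The part of macrophages in the other rises and falls was not tested. The counts of the lists below can be read beside the 7.89% and 6.7% of all genes that rose, the 7.02% and 4.88% that fell and the 4.45% and 1.84% that rose or fell in both sets.

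Among lysosomal and autophagy genes, 16 of 29 rose in the S6K1 set and 10 in the S6K1/S6K2 set, the same 10 in both, with medians of 0.51 and 0.31. Ctsd, the protease cathepsin D, rose by log2 1.05 and 1.34, Ctsb, cathepsin B, by 0.77 and 0.90, and Hexa, a subunit of beta-hexosaminidase, by 0.70 and 0.82. Glb1, the lysosomal beta-galactosidase behind the senescence stain, stood at 106 to 119 CPM early and 86.6 to 127 CPM late in the S6K1 set and at 135 to 147 and 123 to 143 CPM in the S6K1/S6K2 set, and did not pass in either (adjusted p = 0.572 and 0.73). Of the 21 antioxidant genes under NRF2, 5 rose in each set and 4 in both. Fth1, the ferritin heavy chain, rose by 1.63 and 2.09, and Prdx1, a peroxiredoxin, by 0.52 and 0.62. Macrophages express many of these genes too.

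Of the 10 adipocyte markers listed, 5 could be tested, and 3 of these rose in both sets. The part of macrophages in these rises was not tested. Pparg and Cebpa, transcription factors of fat cell differentiation, rose by 1.69 and 1.60 and by 1.99 and 2.24, and Lpl, lipoprotein lipase, by 1.90 and 2.12. Fabp4, a fatty acid carrier of fat cells, had estimates of −0.30 and 0.72 and passed in neither (adjusted p = 0.72 and 0.343). Igf1, insulin-like growth factor 1, stood at 23.5, 58.2, 49.4 and 48.7 CPM early and 179, 191, 156 and 119.6 CPM late in the S6K1 set. Igf1 in the S6K1/S6K2 set was at 24.1, 17.1, 34.4 and 38.5 CPM early and 161, 181, 199 and 112 CPM late. Every late library was above every early one, and the passage effect was 1.85 (SE 0.29, adjusted p = 0.000448) in the S6K1 set and 2.52 (SE 0.29, adjusted p = 8e-05) in the S6K1/S6K2 set. Tgfbr1, a TGF-beta receptor, rose by 1.02 and 0.87.

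**Figure D2:**
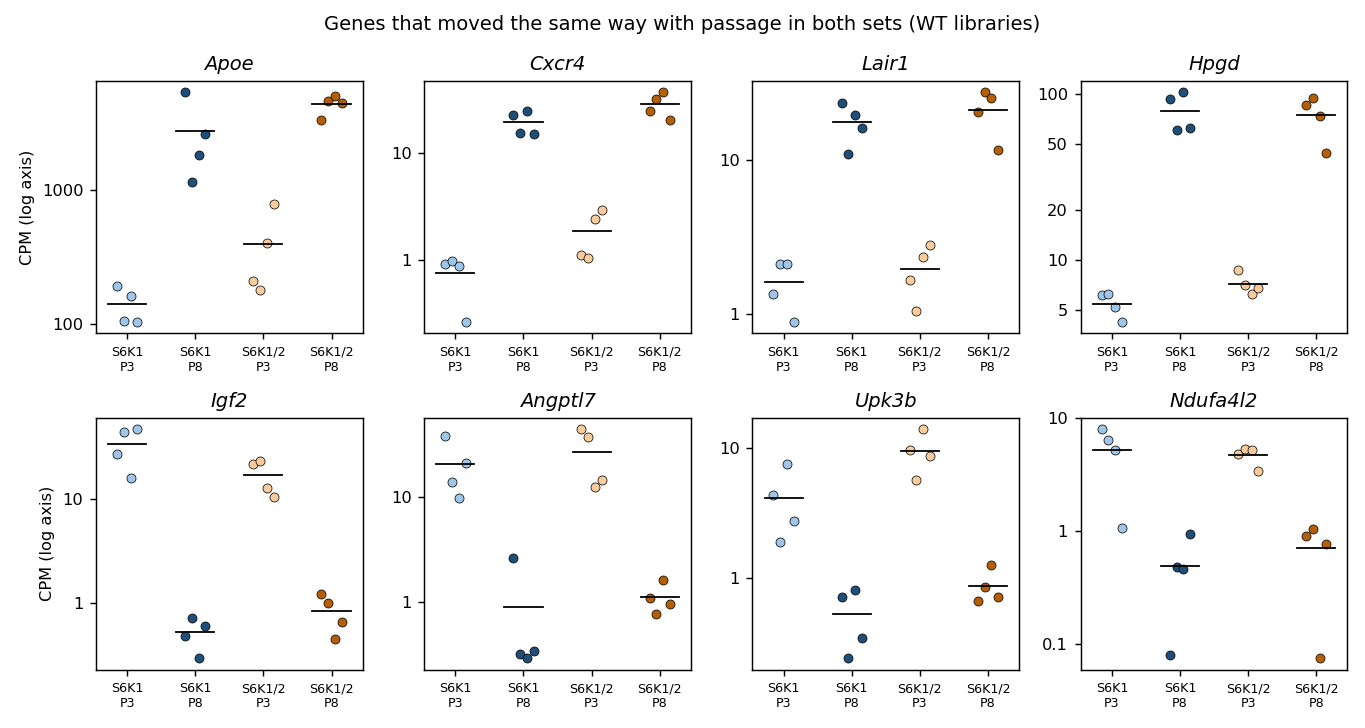
CPM (log axis) of 8 genes that moved the same way in both sets, with 1 point per library, 4 per group, and a bar at the group mean. P3 is early and P8 late. Apoe, Cxcr4, Lair1 and Hpgd are higher in every late library and Igf2, Angptl7, Upk3b and Ndufa4l2 are lower in every late library of each set. This absence of overlap was a condition for naming them.

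The 10 genes named by the size of their fall in both sets were likewise taken from genes without overlap of early and late libraries. They included a fetal growth factor and markers of minor cell types. Igf2, insulin-like growth factor 2, stood at 27.4, 45, 16.2 and 47.9 CPM early and 0.474, 0.717, 0.289 and 0.597 CPM late in the S6K1 set. Igf2 in the S6K1/S6K2 set was at 21.9, 23.5, 13 and 10.6 CPM early and 1.21, 0.983, 0.446 and 0.642 CPM late. All late libraries were at most 1.21 CPM, and the fall was −6.05 (SE 0.46, adjusted p = 1.29e-06) in the S6K1 set and −4.37 (SE 0.42, adjusted p = 2.44e-05) in the S6K1/S6K2 set. Its difference was 1.69 (95% interval 0.38 to 2.99, adjusted p = 0.428), which did not pass. Igf2as, which lies antisense to Igf2, fell from 456 to 21 counts in the S6K1 set, a ratio of 19.6 (12.6 to 31.9), with 3 late libraries at 3 counts or fewer, and by −3.09 (SE 0.59, adjusted p = 0.00304) in the S6K1/S6K2 set. Since the strand setting of the counting is not given, its reads and those of Igf2 cannot be told apart. H19, the imprinted RNA beside Igf2, passed in the S6K1 set (−2.79 (SE 0.62, adjusted p = 0.00646)) and not in the S6K1/S6K2 set (−1.31 (SE 0.59, adjusted p = 0.163)), where the late libraries ran from 281 to 2307 CPM. Its difference did not pass (adjusted p = 0.654). Igf2r, the receptor that clears IGF2, and Igfbp5, an IGF-binding protein, fell by −0.93 and −0.67 and by −2.89 and −2.53.

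Angptl7, a secreted angiopoietin-like protein, stood at 38.6, 13.9, 9.83 and 21.1 CPM early and 2.61, 0.319, 0.289 and 0.341 CPM late in the S6K1 set. Angptl7 in the S6K1/S6K2 set was at 44.8, 37.6, 12.5 and 14.7 CPM early and 1.09, 0.772, 1.64 and 0.964 CPM late. Its falls were nearly equal, −4.57 and −4.62, and SG19 lay above the other late libraries of the S6K1 set. Msln, mesothelin of mesothelial cells, stood at 19.1, 6.54, 11.9 and 16.5 CPM early and 1.5, 0.557, 1.16 and 0.682 CPM late in the S6K1 set. Msln in the S6K1/S6K2 set was at 59.1, 61, 24.3 and 20.8 CPM early and 0.485, 0.843, 1.64 and 0.45 CPM late. It fell by −3.77 (SE 0.50, adjusted p = 0.000136) in the S6K1 set and −5.61 (SE 0.52, adjusted p = 1.95e-05) in the S6K1/S6K2 set, and the difference of −1.85 (95% interval −3.34 to −0.35, adjusted p = 0.456) did not pass. Upk3b, another mesothelial membrane protein, fell by −2.94 and −3.46. Of the 7 tested mesothelial markers, 3 fell in the S6K1 set, 4 in the S6K1/S6K2 set and 3 in both, while Wt1, a transcription factor of mesothelium, had estimates of 0.16 and −0.35 and passed in neither (adjusted p = 0.923 and 0.819). The summed list ran from 47.1 to 82.2 CPM early and 16.3 to 37.2 CPM late in the S6K1 set and from 82.3 to 114 CPM early and 8.74 to 47.9 CPM late in the S6K1/S6K2 set.

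Erg, an ETS transcription factor of endothelium and cartilage, fell by −3.74 (SE 0.69, adjusted p = 0.00163) in the S6K1 set and −3.46 (SE 0.69, adjusted p = 0.00405) in the S6K1/S6K2 set. Of the 6 tested endothelial markers, 3 fell in the S6K1 set and 2 in both. The summed list overlapped between early and late, at 80.1 to 223 CPM early and 101 to 264 CPM late in the S6K1 set and 97.3 to 169.6 CPM early and 68.1 to 176 CPM late in the S6K1/S6K2 set. Of the 4 tested epithelial markers, 1 fell in both sets, and 1 rose in the S6K1/S6K2 set, Dsp, the junction protein desmoplakin, by 1.62 (SE 0.47, adjusted p = 0.0344), with its difference not past the threshold (adjusted p = 0.569). Krt8, a keratin of simple epithelia, had no count in the late S6K1 set, at least a 15.9-fold fall from 53 counts, and fell from 64 to 3 counts in the S6K1/S6K2 set, a ratio of 20.5 (6.71 to 102). Ndufa4l2, a mitochondrial protein induced by HIF, fell by −3.41 and −2.71, and Lgi3, a secreted leucine-rich protein, from 159 to 12 counts in the S6K1 set, a ratio of 11.9 (6.64 to 23.6), and by −2.70 in the S6K1/S6K2 set. Lgals7, a galectin of stratified epithelia, fell by −2.89 (SE 0.76, adjusted p = 0.0171) in the S6K1 set and from 172 to 10 counts in the S6K1/S6K2 set, a ratio of 16.5 (8.78 to 35.1), but did not pass in the S6K1 set without SG03, SG21 or SG22, or without both SG03 and SG05 (adjusted p = 0.204). Fam101a, a gene linked to actin in the perinuclear region, passed narrowly in the S6K1/S6K2 set (−2.96 (SE 0.90, adjusted p = 0.0429)), and kept that call in 9 of 16 fits without 1 library.

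Of the genes of hypoxia and glycolysis, 9 of 27 fell in the S6K1 set, 6 in the S6K1/S6K2 set and 5 in both. Vegfa, the vascular growth factor, fell by −1.26 and −0.60, Slc16a3, a lactate exporter, by −1.93 and −1.59, Pdk1, which restrains pyruvate oxidation, by −0.90 and −0.68, and Ddit4, an inhibitor of mTORC1, by −0.64 and −0.72. Ddit4 had the tightest difference of these, −0.08 (95% interval −0.44 to 0.28, adjusted p = 0.914). Of the 28 genes of ATF4 and the unfolded protein response, 3 fell and 1 rose in the S6K1 set. In the S6K1/S6K2 set 5 fell, and 2 fell in both sets. These 2 were Trib3 and Aldh1l2, targets of ATF4, which fell by −0.95 and −1.41 and by −1.18 and −1.30. No gene of the hypoxia, ATF4 or NRF2 lists had a difference that passed by edgeR, DESeq2 or voom, and 2, 1 and 1 of them did at an unadjusted p below 0.05.

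Of 32 collagen and matrix genes, 4 fell in the S6K1 set and 11 in the S6K1/S6K2 set, with the 4 among the 11, and none had a difference that passed by edgeR, DESeq2 or voom, with 1 at an unadjusted p below 0.05. Col1a1, the main chain of type I collagen, stood at 7074, 9983, 8758 and 10629.7 CPM early and 3194, 5116, 6698 and 4961 CPM late in the S6K1 set. Col1a1 in the S6K1/S6K2 set was at 10104, 12289, 9922 and 7529.8 CPM early and 4108, 3561, 2872 and 4312 CPM late. Early and late libraries did not overlap in either set, and the fall was −0.87 (SE 0.23, adjusted p = 0.0189) in the S6K1 set and −1.42 (SE 0.24, adjusted p = 0.00108) in the S6K1/S6K2 set. Col1a2, the other chain of type I collagen, fell by −1.01 and −0.92 and Fbn1, fibrillin of microfibrils, by −0.99 and −1.39. Col3a1, type III collagen, had estimates of −0.87 and −1.24 and passed in the S6K1/S6K2 set (adjusted p = 0.0322) and not in the S6K1 set (adjusted p = 0.108), with a difference of −0.37 (95% interval −1.41 to 0.68, adjusted p = 0.853). Of the 14 tested fibroblast markers, 2 fell in both sets, Col1a1 and Col1a2, which are on the matrix list too. Their summed level ran from 25198 to 35054 CPM early and 16097 to 23651 CPM late in the S6K1 set, and from 24546 to 36107 CPM early and 16868 to 21999 CPM late in the S6K1/S6K2 set. The summed macrophage markers given above rose over the same libraries, and the part of either in the matrix genes was not tested. None of the 17 contractile genes of myofibroblasts passed in either set by edgeR, against 5 and 4 at an unadjusted p below 0.05, 3 and 1 by DESeq2, and 1 and 3 by voom.

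Of the cell cycle inhibitors and p53 targets, 4 of 25 rose in each set and 2 in both, beside 7.89%, 6.7% and 4.45% of all genes. DESeq2 called 4 in the S6K1 set and 8 in the S6K1/S6K2 set, and voom 4 and 12. Cdkn2a, which encodes p16Ink4a and p19Arf, stood at 204, 181, 119 and 269 CPM early and 383, 601, 443 and 352 CPM late in the S6K1 set. Cdkn2a in the S6K1/S6K2 set was at 180.1, 197, 238 and 322 CPM early and 420.3, 606, 619.95 and 342 CPM late. It rose by 1.20 (SE 0.27, adjusted p = 0.00632) in the S6K1 set and 1.08 (SE 0.27, adjusted p = 0.015) in the S6K1/S6K2 set, with a difference of −0.12 (95% interval −0.91 to 0.67, adjusted p = 0.946). Perp, a p53 target, was the other and rose by 1.23 and 1.46. Cdkn1a, which encodes p21, had estimates of 0.05 and 0.45 and passed in neither (adjusted p = 0.885 and 0.135). Among 26 mitosis genes, 3 fell in the S6K1 set and 14 in the S6K1/S6K2 set, 2 of them in both, with medians of −0.40 and −0.77. Mki67, a marker of dividing cells, had passage effects of −0.65 (SE 0.26, adjusted p = 0.104) in the S6K1 set and −0.95 (SE 0.26, adjusted p = 0.0277) in the S6K1/S6K2 set. Its difference was −0.29 (95% interval −1.07 to 0.49, adjusted p = 0.839), and no gene of the list had a difference that passed by edgeR, DESeq2 or voom, with 5 at an unadjusted p below 0.05. Of 29 DNA replication genes, 2 fell in the S6K1/S6K2 set by edgeR, beside 4.88% of all genes, with 5 past the threshold by DESeq2 and 11 by voom. None passed in the S6K1 set by edgeR, against 2 at an unadjusted p below 0.05, none by DESeq2 and 2 by voom.

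Interferon-stimulated genes, which report type I interferon signalling, fell for 8 of 33 in the S6K1 set and 20 in the S6K1/S6K2 set, with the 8 among the 20 and medians of −0.50 and −1.23. Isg15, a ubiquitin-like protein, stood at 103, 337, 178 and 88.8 CPM early and 69.6, 63.4, 20.4 and 51.5 CPM late in the S6K1 set. Isg15 in the S6K1/S6K2 set was at 161, 150.02, 125 and 60.4 CPM early and 32.1, 24.8, 10.8 and 13.3 CPM late. It fell by −1.79 (SE 0.47, adjusted p = 0.018) in the S6K1 set and −2.61 (SE 0.49, adjusted p = 0.00273) in the S6K1/S6K2 set, and its difference was −0.82 (95% interval −2.21 to 0.57, adjusted p = 0.746). Ifit1, which binds foreign RNA, fell by −2.18 and −2.32, Ddx58, the RNA sensor RIG-I, by −0.78 and −1.27, and Irf9, a subunit of the interferon-activated factor ISGF3, by −0.69 and −0.84. Stat2, another subunit of that factor, had the only difference that passed by edgeR or voom, and it is described below. DESeq2 called 2, Stat2 and Parp14, an ADP-ribosyltransferase. Only 4 of the 33 estimates of the difference were above 0, and the median difference was −0.63, beside 0.004 over all genes. By estimate, most genes of the list therefore had a lower passage effect in the S6K1/S6K2 set. Of the chemokine and cytokine ligands, 7 of 31 rose in the S6K1 set and 12 in the S6K1/S6K2 set, 7 of them in both. Cxcl16 rose by 2.68 and 2.21, Ccl9 by 2.43 and 1.40, Ccl3 by 1.47 and 3.29 and Ccl8 by 1.26 and 1.49, all ligands that draw leukocytes and that macrophages also make. Il6, the inflammatory cytokine, passed in neither set (adjusted p = 0.83 and 0.516), and its difference was −0.42 (95% interval −2.22 to 1.38, adjusted p = 0.907).

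**Figure D3:**
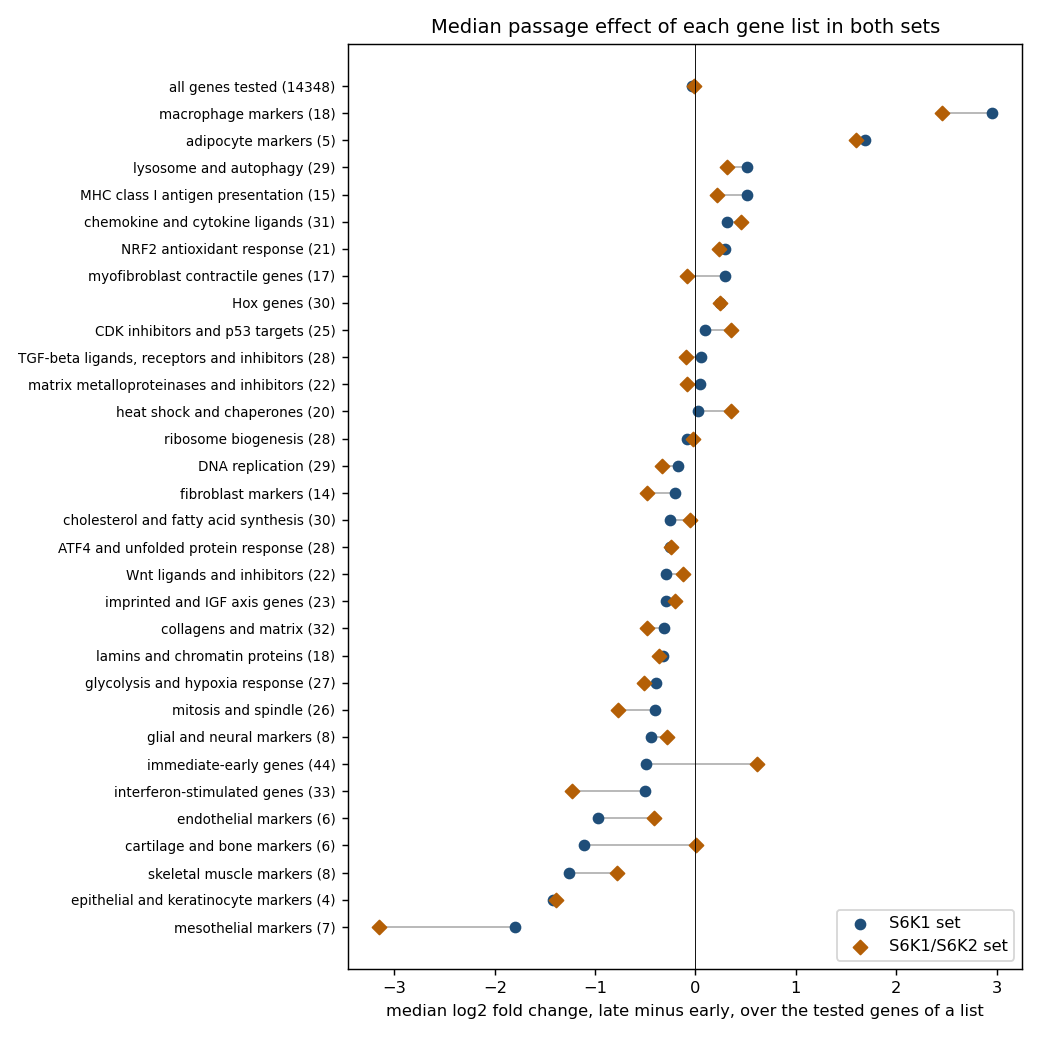
Median passage effect (log2, late minus early) over the tested genes of each list, with circles for the S6K1 set and diamonds for the S6K1/S6K2 set and the number of genes in parentheses. Most lists lie on the same side of 0 in both sets, and the immediate-early genes lie at −0.49 in the S6K1 set and 0.61 in the S6K1/S6K2 set.

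The passage effect differed between the sets for 84 genes, 55 higher (0.383% of the genes tested) and 29 lower (0.202%) in the S6K1/S6K2 set, against 1221 at an unadjusted p below 0.05. Without any 1 library the counts were 34 to 49 and 18 to 25, lowest without SG46 (34 and 18), and 43 of the 84 genes passed in all 25 fits that were run. In simulated data of this design, 60% to 75.5% of differences of log2 2 and 10.4% to 18.2% of those of log2 1 were recovered, so many differences of the second size would be missed. Of the 903 agreeing genes, 329 had a 95% interval of the difference within 1 log2 unit on either side of 0, and the median interval reached 0.944 to either side. For most agreeing genes a smaller or larger effect in 1 set could therefore not be told apart from an equal one.

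In 73 of the 84 genes the estimates had opposite signs, and 37 (0.258% of the genes tested) passed in both sets with opposite signs, 24 that fell in the S6K1 set and rose in the S6K1/S6K2 set and 13 the other way. The estimated difference between the sets also changed sign from passage 3 to passage 8 in 81 of the 84 genes, against 38.4% of all genes. By these estimates, 54 of the 55 genes were lower at passage 3 and higher at passage 8 in the S6K1/S6K2 set. Of the 29 genes, 27 were higher at passage 3 and lower at passage 8. The difference between the sets passed in only 30 of the 84 at passage 3 and 33 at passage 8. A change of sign therefore does not show a reversal in each gene. A test of the interaction favours genes whose estimates change sign in this way. Immediate-early genes, which growth factors and stress induce within minutes, gave 19 of the 55 and none of the 29, and 11 of the 37 that turned. This split follows a chosen list of 48 symbols. A gene outside the list can respond as fast, so the other genes are not a class apart.

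**Figure D4:**
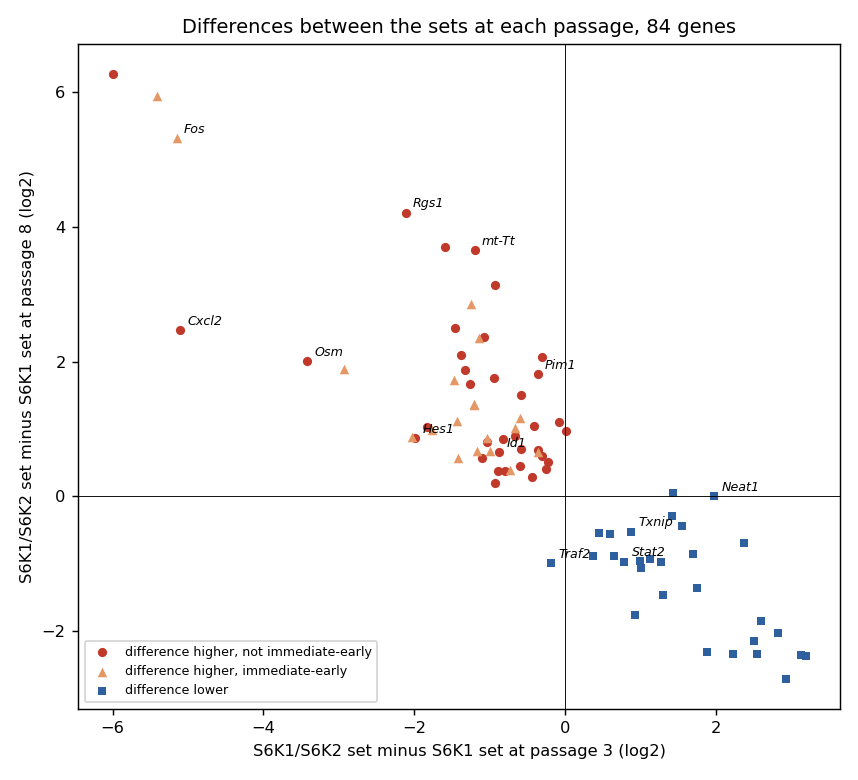
Difference between the sets (S6K1/S6K2 set minus S6K1 set, log2) at passage 3 (horizontal axis) and at passage 8 (vertical axis) for the 84 genes whose passage effect differed, 1 point per gene. The genes higher in the S6K1/S6K2 set (circles and triangles) lie in the upper left for 54 of 55 and those lower in it (squares) in the lower right for 27 of 29.

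Among the 36 genes outside the immediate-early list that were higher in the S6K1/S6K2 set, 28 fell in the S6K1 set and 21 rose in the S6K1/S6K2 set. Over all genes, 7.02% fell in the S6K1 set and 6.7% rose in the S6K1/S6K2 set. Selection by the difference favours such changes and a lack of overlap between early and late libraries, so neither is further support. Ppp1r15a, which encodes the phosphatase subunit GADD34 that restores translation after stress, stood at 138, 129, 128 and 103 CPM early and 37.4, 31.6, 35 and 32.4 CPM late in the S6K1 set. Ppp1r15a in the S6K1/S6K2 set was at 38.3, 51.9, 51.3 and 67.5 CPM early and 123, 94.1, 97.2 and 118 CPM late. The early S6K1 and late S6K1/S6K2 libraries were the high ones, and early and late did not overlap in either set. It fell by −1.87 (SE 0.16, adjusted p = 4.86e-06) in the S6K1 set and rose by 1.05 (SE 0.16, adjusted p = 0.000508) in the S6K1/S6K2 set, a difference of 2.92 (95% interval 2.44 to 3.40, adjusted p = 1.64e-06). Pim1, a serine/threonine kinase induced by cytokines, stood at 32.8, 41.3, 39.1 and 31.6 CPM early and 14.6, 12.7, 11.9 and 12.4 CPM late in the S6K1 set. Pim1 in the S6K1/S6K2 set was at 20.2, 28.2, 33.3 and 31.4 CPM early and 32.3, 46.9, 44.1 and 57.6 CPM late. It was lowest in the late S6K1 libraries, with passage effects of −1.49 and 0.68 and a difference of 2.17 (95% interval 1.63 to 2.71, adjusted p = 0.000288). Ccnl1, cyclin L1, which acts with splicing kinases, had passage effects of −0.96 and 0.31 and a difference of 1.28 (95% interval 0.95 to 1.60, adjusted p = 0.000386).

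The promoters of Ppp1r15a and Ccnl1 are shown because both hold a cyclic AMP response element (CRE), a motif also found in promoters of immediate-early genes, and that of Stat2 because it leads the genes lower in the S6K1/S6K2 set that belong to a named pathway. Each line gives the 250 bases before the start of transcription, 5′ to 3′ on the strand of the gene, from RefSeq on GRCm38.p6, the build of the sequence table. The build behind the counts is uncertain. Capitals mark motifs: CRE (TGACGTCA) and the interferon-stimulated response element (ISRE, TTTCNNTTTC) in Ppp1r15a at chr7:45526269-45526518 on the minus strand, CRE in Ccnl1 at chr3:65958250-65958499 on the minus strand, and CCAAT and ISRE in Stat2 at chr10:128270248-128270497 on the plus strand.
Ppp1r15a: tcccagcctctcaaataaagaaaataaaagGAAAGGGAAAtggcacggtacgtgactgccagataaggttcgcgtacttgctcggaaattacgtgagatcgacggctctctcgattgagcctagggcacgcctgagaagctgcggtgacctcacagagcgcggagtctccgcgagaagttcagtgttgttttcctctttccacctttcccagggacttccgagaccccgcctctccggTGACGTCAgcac
Ccnl1: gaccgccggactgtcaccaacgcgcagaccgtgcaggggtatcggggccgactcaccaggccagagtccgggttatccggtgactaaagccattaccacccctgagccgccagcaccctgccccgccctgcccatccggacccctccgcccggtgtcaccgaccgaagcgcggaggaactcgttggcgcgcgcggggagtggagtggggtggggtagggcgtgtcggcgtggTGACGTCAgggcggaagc
Stat2: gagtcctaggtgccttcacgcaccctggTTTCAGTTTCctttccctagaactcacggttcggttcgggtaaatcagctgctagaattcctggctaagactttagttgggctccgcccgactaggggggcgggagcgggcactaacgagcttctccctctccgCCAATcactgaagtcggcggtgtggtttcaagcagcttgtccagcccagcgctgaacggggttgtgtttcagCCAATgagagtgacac

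Motifs were searched on either strand in the 300 bases from 250 before to 50 after the start, and 27025 genes had such a promoter, 9359 of them among the genes tested. CRE was found in 2.03% of all and 3.6% of those tested, in 3 of the 30 promoters matched among the 55 genes higher in the S6K1/S6K2 set, in 2 of the 15 matched outside the immediate-early list, and in 5 of the 32 of the immediate-early list. ISRE was found in 3.99% of all, 3.79% of those tested and in 13 of 25 promoters of interferon-stimulated genes. CHR (TTTGAA) stood in 76.2% of promoters of the mitosis list against 20.2% of all and 14.2% of those tested, and CCAAT in 81% of them against 41.1% and 42.8%. E2F motifs (TTTCCCGC or TTTGGCGC) stood in 39.1% of promoters of the DNA replication list against 1.8% and 3.33%. Of the 10 promoters matched among the 29 genes lower in the S6K1/S6K2 set, 8 held CCAAT. AP-1 (TGANTCA) stood in 8.66% of promoters of the genes that rose in both sets, in 6.38% of those tested and in 8.97% of all. CHR, CCAAT and the others can overlap, and a match is a description of the letters alone.

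Hes1, a repressor downstream of Notch, stood at 157, 399.5, 186 and 347 CPM early and 82.1, 168, 142 and 95.9 CPM late in the S6K1 set. Hes1 in the S6K1/S6K2 set was at 47.9, 53.6, 93.1 and 80.2 CPM early and 196, 214, 256 and 219 CPM late. SG03 and SG05 were the highest early libraries of the S6K1 set, where early and late overlapped, and all late S6K1/S6K2 libraries were above the early ones. The passage effects were −1.16 (SE 0.30, adjusted p = 0.0169) in the S6K1 set and 1.69 (SE 0.31, adjusted p = 0.00221) in the S6K1/S6K2 set, and the difference was 2.84 (95% interval 1.93 to 3.76, adjusted p = 0.00353). Frat2, which relieves beta-catenin from GSK3, fell and rose by −1.10 and 2.37. It stood at 1.99 to 3.46 CPM early and 0.791 to 1.91 CPM late in the S6K1 set. Frat2 in the S6K1/S6K2 set was at 0.844 to 1.48 CPM early and 3.94 to 6.68 CPM late. Its difference was 3.47 (95% interval 2.49 to 4.44, adjusted p = 0.0009). Snora31, a small nucleolar RNA that guides pseudouridylation, turned as well (−1.21 and 1.17), but its difference passed in 3 of 16 fits without 1 library.

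Id1, an inhibitor of basic helix-loop-helix factors induced by BMP, stood at 93.4, 115, 80.4 and 125 CPM early and 114, 118, 98.8 and 97.3 CPM late in the S6K1 set. Id1 in the S6K1/S6K2 set was at 44.3, 64.4, 56.6 and 60.9 CPM early and 129, 166, 224 and 152 CPM late. Early and late overlapped in the S6K1 set, and the late S6K1/S6K2 libraries were the highest of all. Its passage effects were 0.05 (SE 0.18, adjusted p = 0.891) in the S6K1 set and 1.57 (SE 0.18, adjusted p = 7.32e-05) in the S6K1/S6K2 set, and its difference was 1.52 (95% interval 0.99 to 2.06, adjusted p = 0.00703). Of the 28 genes of TGF-beta and BMP signalling, 4 had a difference that passed, all higher in the S6K1/S6K2 set, beside 0.383% of all genes. The list as a whole did not lean that way. Only 9 of the 28 estimates of the difference were above 0, and their median was −0.095, beside 0.004 over all genes. Id2, a relative of Id1, had passage effects of 0.39 and 2.05 and a difference of 1.66 (95% interval 1.04 to 2.27, adjusted p = 0.0115), which was 1.35 with an adjusted p of 0.0526 without both SG03 and SG05. Smad7, an inhibitory SMAD, had a difference of 1.16 (95% interval 0.68 to 1.64, adjusted p = 0.0265), and Skil, a corepressor of SMADs, one of 0.65 (95% interval 0.37 to 0.93, adjusted p = 0.0349). Smad7 passed in 7 and Skil in 2 of 16 fits without 1 library. Tgfb1, Tgfb2 and Tgfb3, the ligands, had differences of −0.23, 1.07 and −0.18, with adjusted p of 0.817, 0.661 and 0.934.

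Among ligands and receptors of leukocytes, Cxcl2, a chemokine for neutrophils, stood at 5.14, 6.39, 6.61 and 6.34 CPM early and 1.82, 0.478, 0.809 and 0.426 CPM late in the S6K1 set. Cxcl2 in the S6K1/S6K2 set was at 0.224, 0.185, 0.13 and 0.132 CPM early and 6.37, 7.51, 3.2 and 2.57 CPM late. The early S6K1 and late S6K1/S6K2 libraries were high, and the groups did not overlap within either set. It fell by −2.78 (SE 0.43, adjusted p = 0.000439) in the S6K1 set. In the S6K1/S6K2 set 3 of the 4 early libraries held 3 counts or fewer, and the rise was from 11 to 295 counts over the groups, a ratio of 27.9 (15.4 to 56.5). Its difference passed (adjusted p = 9.22e-06), with no exact fold. Cxcl1, a related chemokine for neutrophils, had a difference of 1.40 (95% interval −0.66 to 3.46, adjusted p = 0.714). Osm, oncostatin M of the IL-6 family, had 3 counts in all early libraries of the S6K1/S6K2 set and 109 in the late ones, a ratio of 37.8 (12.6 to 186), while the S6K1 set held 0.325 to 0.76 CPM early and 0.0853 to 0.717 CPM late. Its difference passed (adjusted p = 0.0037).

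Rgs1, a regulator of G-protein signalling in leukocytes, stood at 6.06, 4.66, 9.18 and 0.803 CPM early and 4.9, 2.63, 3.29 and 2.81 CPM late in the S6K1 set. Rgs1 in the S6K1/S6K2 set was at 0.447, 0.493, 1.49 and 2.5 CPM early and 60.3, 84.7, 68 and 40.4 CPM late. The late S6K1/S6K2 libraries were far above the rest, and early and late overlapped in the S6K1 set. The difference was 6.32 (95% interval 4.67 to 7.97, adjusted p = 0.00042). Ccrl2, an atypical chemoattractant receptor of myeloid cells, and Ptafr, the receptor of platelet-activating factor, were the 2 of the 903 agreeing genes whose difference passed. Ccrl2 rose by 1.40 (SE 0.40, adjusted p = 0.027) in the S6K1 set and 4.83 (SE 0.43, adjusted p = 1.59e-05) in the S6K1/S6K2 set, a difference of 3.43 (95% interval 2.19 to 4.67, adjusted p = 0.00906). Ptafr stood at 0.216, 0.376, 0.526 and 0.179 CPM early and 9.17, 4.7, 8.61 and 4.69 CPM late in the S6K1 set. Ptafr in the S6K1/S6K2 set was at 0.67, 0.37, 1.04 and 1.25 CPM early and 1.94, 2.88, 2.9 and 2.12 CPM late. It rose more in the S6K1 set, 4.33 and 1.56, and its difference of −2.77 (95% interval −4.0 to −1.55, adjusted p = 0.0365) passed in 4 of 16 fits without 1 library. The summed macrophage markers, given above, overlapped between the late libraries of the sets, 5554 to 11695 and 7758 to 13431 CPM, and their part in these values was not tested.

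mt-Tt, the mitochondrial tRNA for threonine, stood at 12, 23.5, 9.59 and 30.6 CPM early and 1.34, 1.11, 0.52 and 1.71 CPM late in the S6K1 set. mt-Tt in the S6K1/S6K2 set was at 4.8, 8.02, 13 and 7.17 CPM early and 13.9, 15.2, 21.6 and 7.39 CPM late. It was lowest in the late S6K1 libraries, with a difference of 4.85 (95% interval 3.51 to 6.19, adjusted p = 0.000757). Transcripts of the mitochondrial genome took 0.704% to 0.857% of counts in those libraries and 0.987% to 1.71% in all others, and the part of this share was not tested. Hspa1a, an inducible HSP70 chaperone, stood at 5.34 to 7.15 CPM early and 4.86 to 7.25 CPM late in the S6K1 set, and at 5.13 to 6.35 and 11.4 to 15.1 CPM in the S6K1/S6K2 set. Its difference was 1.19 (95% interval 0.66 to 1.71, adjusted p = 0.0394), but it shares reads with the near-identical Hspa1b, whose difference was 0.53 (95% interval 0.13 to 0.92, adjusted p = 0.397), and it passed in 2 of 16 fits without 1 library. Runx2, a transcription factor of bone, fell in the S6K1 set (−1.51 (SE 0.19, adjusted p = 7.4e-05)) and not in the S6K1/S6K2 set (−0.25 (SE 0.18, adjusted p = 0.398)). SG03 and SG05 held its highest levels, 77.1 and 72.8 CPM against 40.2 and 44.4 CPM in the other early libraries of the set, and without both of them the difference was 0.80 with an adjusted p of 0.0715.

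**Figure D5:**
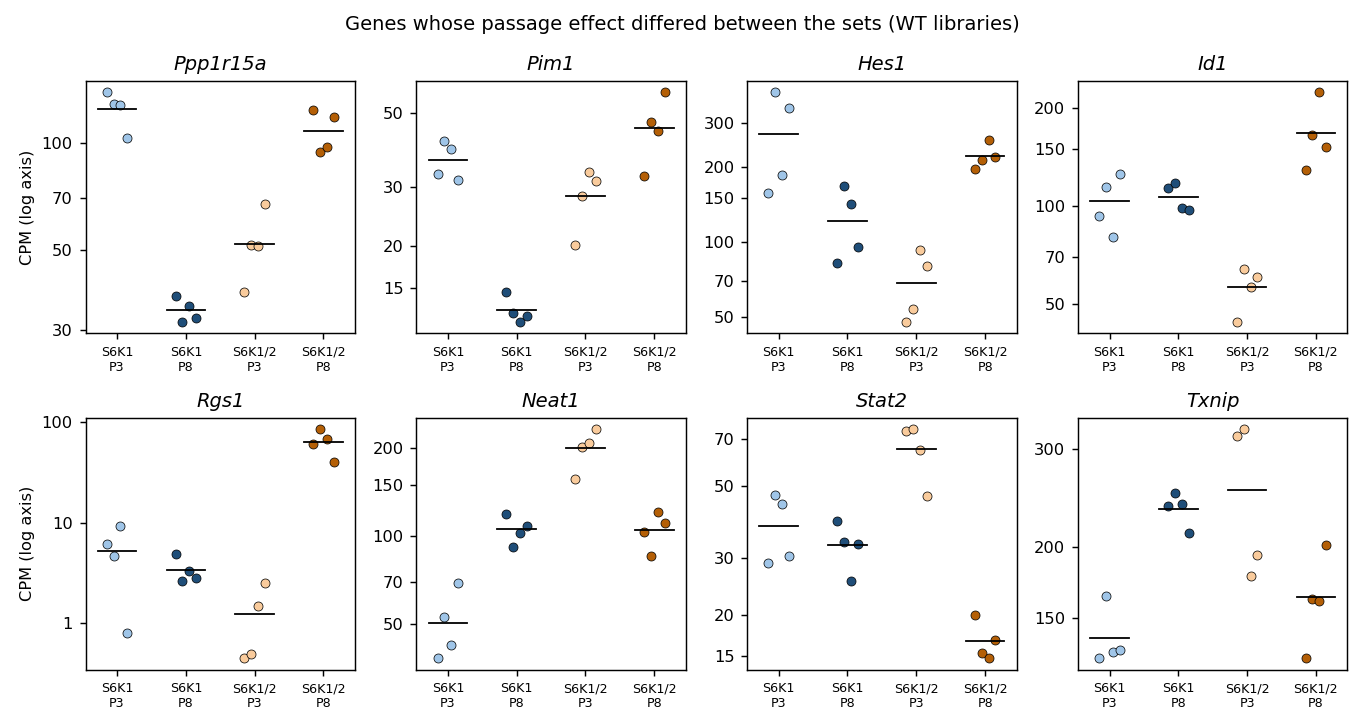
CPM (log axis) of 8 genes whose passage effect differed between the sets, with 1 point per library, 4 per group, and a bar at the group mean. P3 is early and P8 late. Ppp1r15a and Pim1 are low in the late S6K1 libraries and higher in the late S6K1/S6K2 libraries, while Neat1, Stat2 and Txnip have their highest group mean in the early S6K1/S6K2 libraries.

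Of the 29 genes lower in the S6K1/S6K2 set, 23 rose in the S6K1 set and 19 fell in the S6K1/S6K2 set, beside 7.89% and 4.88% of all genes. Selection by the difference favours these changes too. No symbol was found for 13 of the 29, against 5 of the 55 higher genes and 947 of the 14348 genes tested. Neat1, the long noncoding RNA that builds paraspeckles, stood at 38.2, 52.8, 42.4 and 68.9 CPM early and 119.6, 91.7, 103 and 108 CPM late in the S6K1 set. Neat1 in the S6K1/S6K2 set was at 157, 202, 209 and 233 CPM early and 103, 85.7, 121 and 111 CPM late. The early libraries differed by set, the late ones met at 85.7 to 121 CPM, and within each set early and late did not overlap. It rose by 1.06 (SE 0.18, adjusted p = 0.000858) in the S6K1 set and fell by −0.92 (SE 0.18, adjusted p = 0.00329) in the S6K1/S6K2 set, a difference of −1.99 (95% interval −2.52 to −1.45, adjusted p = 0.000609). At passage 3 the sets differed by 1.98 (adjusted p = 3.1e-05), and at passage 8 by less than 0.01.

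Stat2, the signal transducer of type I interferon named above, stood at 29, 47, 44.2 and 30.5 CPM early and 39.1, 33.7, 25.6 and 33.1 CPM late in the S6K1 set. Stat2 in the S6K1/S6K2 set was at 74.1, 75, 64.9 and 46.7 CPM early and 20.01, 15.2, 14.7 and 16.8 CPM late. Its mean was highest in the early and lowest in the late S6K1/S6K2 libraries, and early and late overlapped in the S6K1 set. The passage effects were −0.20 (SE 0.19, adjusted p = 0.529) in the S6K1 set and −1.97 (SE 0.20, adjusted p = 3.17e-05) in the S6K1/S6K2 set, and the difference was −1.77 (95% interval −2.35 to −1.18, adjusted p = 0.00439). Irf7, an interferon regulatory factor, also passed in the S6K1/S6K2 set alone (−1.0 and −2.01), but its difference was −1.01 (95% interval −2.16 to 0.14, adjusted p = 0.641). Traf2, an adaptor of TNF receptors, had passage effects of 0.22 and −0.59 and a difference of −0.81 (95% interval −1.19 to −0.44, adjusted p = 0.0481), which passed in 1 of 16 fits without 1 library.

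Txnip, the thioredoxin-interacting protein that follows glucose, stood at 127, 164, 130.02 and 131 CPM early and 237, 250.2, 239 and 212 CPM late in the S6K1 set. Txnip in the S6K1/S6K2 set was at 317, 325, 178 and 194 CPM early and 127, 162, 161 and 202 CPM late. In the S6K1 set all late libraries were above the early ones, while in the S6K1/S6K2 set the groups overlapped, since SG48 and SG50 were lower than SG46 and SG47. It turned (0.77 (SE 0.19, adjusted p = 0.0136) in the S6K1 set and −0.64 (SE 0.19, adjusted p = 0.0423) in the S6K1/S6K2 set), with a difference of −1.40 (95% interval −1.98 to −0.82, adjusted p = 0.0265) that passed in 5 of 16 fits without 1 library. Ppp1r3c, which targets a phosphatase to glycogen, stood at 1.52, 5.19, 1.93 and 3.39 CPM early and 17.6, 55.3, 27.6 and 26.3 CPM late in the S6K1 set. Ppp1r3c in the S6K1/S6K2 set was at 7.37, 6.6, 4.61 and 4.08 CPM early and 7.64, 11.9, 7.06 and 10.7 CPM late. It rose in the S6K1 set by 3.42 (SE 0.41, adjusted p = 6.39e-05), and its effect of 0.72 (SE 0.38, adjusted p = 0.232) in the S6K1/S6K2 set did not pass. The difference was −2.70 (95% interval −3.85 to −1.55, adjusted p = 0.0304), past the threshold in 5 of 16 such fits. Pla2g15, a lysosomal phospholipase, rose in the S6K1 set (1.04 (SE 0.14, adjusted p = 0.000155)) and did not pass in the S6K1/S6K2 set (0.04 (SE 0.14, adjusted p = 0.896)), a difference of −1.0 (95% interval −1.42 to −0.58, adjusted p = 0.0276) that passed in 6 of 16.

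Ap3m2, a subunit of the AP-3 adaptor for sorting to lysosome-related organelles, varied little within the S6K1 groups. It stood at 8.66, 8.57, 8.95 and 8.3 CPM early and 15.6, 15.4, 15.5 and 15.4 CPM late in the S6K1 set. Ap3m2 in the S6K1/S6K2 set was at 14.1, 14.4, 12.2 and 11.8 CPM early and 11.9, 11, 9.96 and 8.99 CPM late. Early and late S6K1 libraries lay apart, the S6K1/S6K2 groups overlapped, and the passage effects were 0.84 (SE 0.13, adjusted p = 0.000415) in the S6K1 set and −0.32 (SE 0.13, adjusted p = 0.115) in the S6K1/S6K2 set, a difference of −1.16 (95% interval −1.55 to −0.78, adjusted p = 0.00441). Zfp866, a zinc-finger gene, turned (0.95 (SE 0.23, adjusted p = 0.0102) in the S6K1 set and −1.01 (SE 0.23, adjusted p = 0.00958) in the S6K1/S6K2 set), with a difference of −1.96 (95% interval −2.64 to −1.28, adjusted p = 0.00677). Since zinc-finger genes come in near-identical families, its counts are uncertain. Gt(ROSA)26Sor, the noncoding RNA of the Rosa26 locus, had passage effects of 1.05 and −0.49 and a difference of −1.54 (95% interval −2.18 to −0.90, adjusted p = 0.0272), past the threshold in 7 of 16 fits without 1 library.

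The kinases that name the sets had no difference that passed. Rps6kb1, which encodes S6K1, stood at 92.5, 95, 88.4 and 94.2 CPM early and 57.4, 75, 56.9 and 66.4 CPM late in the S6K1 set. Rps6kb1 in the S6K1/S6K2 set was at 87.4, 79.1, 73.7 and 85.8 CPM early and 76.8, 67.4, 65.2 and 87.9 CPM late. It fell in the S6K1 set by −0.53 (SE 0.12, adjusted p = 0.00754), and its effect of −0.13 (SE 0.12, adjusted p = 0.517) in the S6K1/S6K2 set did not pass. The difference of 0.40 (95% interval 0.04 to 0.76, adjusted p = 0.536) did not pass either. Rps6kb2, which encodes S6K2, had effects of −0.67 and −0.48 and a difference of 0.19 (95% interval −0.36 to 0.74, adjusted p = 0.858). Of the immediate-early list, 16 of 44 genes fell in the S6K1 set and 17 rose in the S6K1/S6K2 set. Fos, a subunit of AP-1, had passage effects of −4.95 and 5.52 and Fosb, its relative, of −5.85 and 5.50, while Fosl1, another relative, had a difference of 0.05 (95% interval −1.0 to 1.10, adjusted p = 0.989). At passage 3 the sets differed in 43 genes and at passage 8 in 112, and 30 and 33 of these were among the 84.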

How the data were processed

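RNA-seq of passaged MEFs was taken from the deposited raw counts per gene, whole reads without normalization, for 55401 identifiers. The submitters' processing notes name CASAVA, STAR 2.7.1a, DESeq2 1.28.1 and the build mm10, while the paper's methods describe TopHat alignment to mm9 and counting by HTSeq. The authors' build and aligner are therefore uncertain, no gene position from the counts is used, and the strand setting is not given in the sources used here. Symbols were found for 32589 identifiers.

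Counts of the 16 WT libraries were fitted in R 4.3.3 with edgeR 4.0.16: filterByExpr by group, TMM scaling, a robust quasi-likelihood fit of 4 groups of 4 libraries, no covariate, and contrasts for each set's passage effect and for their difference. The adjusted p is Benjamini-Hochberg over 14348 genes. Intervals are 95%. CPM are scaled to the library's total over the genes tested, adjusted by its TMM factor. Each library was 1 replicate, and the paper describes its MEF replicates as made from different embryos of several mothers. The labels do not name the embryo of a library, so p-values measure the spread between these libraries. Ratios of groups with 3 counts or fewer, in all or in 3 of 4 libraries, use the total counts with an exact interval that covers counting error only.

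Genes with a symbol and a mean of at least 1 CPM were named by rule: the 10 largest effects among agreeing genes without overlap in each direction, the 10 smallest p of the difference in each direction and among genes that turn, leaving out immediate-early genes, and from each list its first 3 members, up to 4 with a difference and up to 4 that agree. The members and lists were chosen with earlier results of these data known. Scripts were tested on 4 simulated data sets with 100 changed genes per size over 14121 to 14152 tested genes. Of the calls of a difference, 1.075% to 6.818% were unchanged genes. The alternatives were DESeq2 1.42.0, limma 3.58.1 voom with sample weights, RLE or upper quartile scaling, no filter, all 22 libraries, the 2 groups of a set alone, Y-linked expression as a covariate, and each library left out.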

Additional observations from a re-analysis of the deposited data

Results flagged for a closer look

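In 42 named genes, the total count, the mitochondrial share and the summed macrophage markers, each group of 4 libraries was searched for a library far from the other 3. This gave 9 cases in 180 groups, all in named genes, and chance alone gives about 1 in 20. Of the early S6K1 libraries, SG02 held 0.0541 CPM of Serpinb6c and 0.0541 CPM of Shisa9, with the other 3 at 0, SG05 held 0.268 CPM of Cxcr4 against 0.877 to 0.977 CPM, SG03 held 0.226 CPM of Cd5l with the others at 0, and SG03 held 164 CPM of Txnip against 127 to 131 CPM. Of the late S6K1 libraries, SG19 held 2.61 CPM of Angptl7 against 0.289 to 0.341 CPM and 1.34 CPM of Igf2as against 0 to 0.173 CPM. Of the early S6K1/S6K2 libraries, SG50 held 0.461 CPM of Shisa9 with the others at 0, and SG48 held 18.1 CPM of Traf2 against 23.6 to 23.9 CPM. The values of Serpinb6c, Shisa9 and Cd5l are those of a few counts.

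The passage effect differed between the sets in the edgeR test of the difference for 22 genes named by their p. Higher in the S6K1/S6K2 set, on the log2 scale, were Ppp1r15a by 2.92, Cxcl2 by 7.57, Pim1 by 2.17, Ccnl1 by 1.28, Rgs1 by 6.32, mt-Tt by 4.85, Frat2 by 3.47, Hes1 by 2.84, Id1 by 1.52, Ccrl2 by 3.43, Snora31 by 2.38 and Skil by 0.65. Lower in it were Neat1 (−1.99), Stat2 (−1.77), Ap3m2 (−1.16), Zfp866 (−1.96), Txnip (−1.40), Gt(ROSA)26Sor (−1.54), Pla2g15 (−1.0), Ppp1r3c (−2.70), Ptafr (−2.77) and Traf2 (−0.81). The fitted value of Cxcl2 rests on 11 counts in the early S6K1/S6K2 libraries and is not an exact fold. The cause of these differences was not tested.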

How the results depend on the processing

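Alternatives were run for 40 agreeing passage effects of the genes named by their size and for 29 named differences, and none of these changed sign. Of the 40 effects, 38 passed under every alternative, all but those of Fam101a and Lgals7, and of the 29 differences 17 did. Genes that fell in the S6K1 set numbered 641 without both SG03 and SG05, a choice made after seeing the data, and 493 when the 2 groups of that set were fitted alone. In the S6K1/S6K2 set voom gave 1820 that rose and 1829 that fell, and DESeq2 1062 that fell. DESeq2 gave 109 differences higher and 75 lower. Genes that fell in both sets numbered 427 by DESeq2 and 507 by voom. The cause of these changes was not tested.

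Leaving out each library in turn gave 853 to 1198 genes that rose and 618 to 1121 that fell in the S6K1 set, 563 to 1164 and 248 to 761 in the S6K1/S6K2 set, 34 to 49 differences higher and 18 to 25 lower, 438 to 738 genes that rose and 110 to 289 that fell in both sets, and 26 to 39 that turned. Differences higher numbered 34 without SG46 and 35 without SG47, SG58 or SG59, and differences lower 18 without SG21, SG22 or SG46 and 19 without SG50, SG59 or SG60. Without each library in turn, 45 of the 84 differences and 446 of the 903 agreeing genes always passed. With Y-linked expression as a covariate, 43 differences were higher and 29 lower, and 60 of the 84 were shared.

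Below 0.173 to 0.248 CPM a library holds fewer than 3 counts, and where 3 of the 4 libraries of a group held 3 or fewer, ratios of total counts are given. With 4 libraries a group, few differences of log2 1 are found. No paired analysis was possible because the labels give library codes that pair no early library with a late one.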
